A study of Mus musculus with 8 samples.

Results

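Genes that store, move and sense iron were followed in cultured brain cells of S89G-DMP1 mice: the ferritin subunits Fth1 and Ftl1, the carriers and transporters Tfrc, Trf, Slc40a1 and Slc11a2, the heme-degrading enzyme Hmox1, the iron regulatory proteins Aco1 and Ireb2, and the ferritin receptor Ncoa4. All 10 symbols were found by their Ensembl mouse identifiers in both count tables, out of 47859 identifiers listed in either table. The genes were selected on S89G against WT results of these same libraries, that is, they were chosen by their measured counts in S89G and WT cells. Their values in that contrast are therefore a description, and no test of them is read. The series held 8 RNA-seq libraries. Neural stem cells (NSCs) were grown as neurospheres from the sub-ventricular zone, in DMEM/F12 with N2 supplement, with 3 libraries of WT (WT-NSC) and 3 of homozygous S89G-DMP1 mice (S89G-NSC). Astrocytes were grown from cortex in DMEM with 10% fetal bovine serum, with 1 WT library (WT-AST) and 1 S89G-DMP1 library (S89G-AST). All donors were C57BL/6, and the labels give an age of 10 weeks. S89G is a knock-in point mutation that removes the glycosylation site of dentin matrix protein 1, an extracellular matrix protein, in every cell of the animal, and its selection cassette was removed by an FLP cross. The methods give astrocyte donors of both sexes and a slightly higher age. The labels tie no library to an animal or a culture, so p-values measure only the spread between these libraries, which may be technical. Between NSC libraries of the same genotype, the chi-square per gene was 1.07 to 1.51, where counting error alone gives 1. Whether they share an animal or a culture was not tested.

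Iron enters most cells bound to transferrin, the product of Trf, through the transferrin receptor Tfrc, and leaves the endosome through Slc11a2. Iron that is not used is held inside a ferritin shell of heavy (Fth1) and light (Ftl1) chains or exported by ferroportin (Slc40a1), Ncoa4 carries ferritin to the lysosome, and Hmox1 frees iron from heme. A pair of proteins, Aco1 (IRP1) and Ireb2 (IRP2), bind a hairpin called the iron responsive element when iron is scarce. Bound in the leader of ferritin and ferroportin transcripts it holds back translation, and bound in the tail of the Tfrc transcript it protects the mRNA from decay. In brain, astrocytes and microglia store and release iron, while transferrin is made mainly by oligodendrocytes and choroid plexus.

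The hairpins are shown first because they set apart the members whose transcripts hold the letters of an iron responsive element. The loop letters CAGTGN, where N is any base, were searched on the transcript strand 5 bases after a C, with at least 4 of the 5 bases on either side of CAGTGN able to pair. Each sequence below covers 29 bases of the GRCm38 genome with the GENCODE M21 annotation, is written 5′ to 3′ on the transcript strand, and has the loop in capitals. Among the members, the 5′ untranslated regions of Fth1, Ftl1 and Slc40a1 and the 3′ untranslated regions of Tfrc and Slc11a2 held a match.
Fth1, 5′ untranslated, chr19:9982733-9982761, plus strand: tcctgcttcaaCAGTGCttgaacggaacc
Ftl1, 5′ untranslated, chr7:45459778-45459806, minus strand: tcttgcttcaaCAGTGTttgaacggaaca
Slc40a1, 5′ untranslated, chr1:45925464-45925492, minus strand: aacttcagctaCAGTGTtagctaagtttg
Tfrc, 3′ untranslated, chr16:32631220-32631248, plus strand: attatcggaagCAGTGCcttccataatta
Tfrc, 3′ untranslated, chr16:32631599-32631627, plus strand: attatcgggagCAGTGTcttccataatgc
Tfrc, 3′ untranslated, chr16:32631664-32631692, plus strand: tatatcggagaCAGTGAtctccatatgtt
Tfrc, 3′ untranslated, chr16:32631711-32631739, plus strand: attatcgggaaCAGTGTttcccataattt
Slc11a2, 3′ untranslated, chr15:100395152-100395180, minus strand: gccatcagagcCAGTGTgtttctatggtt

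The Slc11a2 hairpin had 4 of 5 pairs, and the other 7 had all 5 pairs. The Ftl1, Tfrc and Slc11a2 matches each lay in 1 of 2 coding transcripts of their gene, and those of Fth1 and Slc40a1 in all. Over the annotation, 178 of 20890 genes with a 5′ untranslated region (0.852%) and 859 of 21691 with a 3′ untranslated region (3.96%) held a match. No full match was found in the untranslated regions of Hmox1, Ireb2, Aco1, Ncoa4 or Trf. A match describes letters only. RefSeq promoter windows on GRCm38.p6 (250 bases before to 50 after a start) were at hand for 6 of the 10 members. Of the 10 windows of those 6 genes, 1 of the 3 Ncoa4 windows held the antioxidant response core TGACNNNGC on either strand, which 12.4% of 32817 promoters held.

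Each NSC library held 2354615 to 2588130 counted reads and the astrocyte libraries held 14008670 (WT) and 13016924 (S89G). The NSC libraries carried neural progenitor markers at a summed level of 7270 to 7679 CPM (counts per 1000000 reads, scaled by TMM), and 8 or 9 of 10 microglia markers were at 0 in each of them. The astrocyte marker list summed to 1523 to 1571 CPM in WT-NSC and 2119 to 2175 CPM in S89G-NSC, with 4 of 7 tested markers higher. Reads on Dmp1 numbered 18, 21 and 16 in WT-NSC, 6, 3 and 5 in S89G-NSC, 2 in WT-AST and 119 in S89G-AST, and a count does not show the point mutation. The astrocyte libraries differed in their cell type markers. The astrocyte list summed to 152 CPM in WT-AST and 1284 CPM in S89G-AST. Of its 9 genes with enough reads, 7 were at least 2-fold higher in S89G-AST and 1 was lower. Gfap had 90 and 901 reads, Aqp4 8 and 4051 and Slc1a3 8 and 3877, while S100b had 64 and 30. The neural progenitor list summed to 3521 and 6227 CPM, with 5 of 8 genes at least 2-fold higher in S89G-AST and none lower. The fibroblast and meningeal list summed to 5633 CPM in WT-AST and 2147 CPM in S89G-AST, with 8 of 10 genes at least 2-fold lower in S89G-AST. The microglia and macrophage list summed to 751 and 1136 CPM, with none of its 10 genes at 0 in either library. Xist, transcribed from the inactive X chromosome, had 12172 reads in WT-AST and 74 in S89G-AST, and the Y-linked genes Ddx3y (0 and 1277 reads), Eif2s3y (0 and 973) and Kdm5d (1 and 766) went the other way. The markers thus left the label of WT-AST in doubt, and with it the direction of every astrocyte difference. Gfap and Aqp4, which define astrocytes, thus had few reads in the library labelled WT-AST, and every astrocyte comparison below rests on 1 library a genotype with these differences. In bulk RNA, fewer cells of a type and less RNA per cell cannot be told apart.

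Both ferritin subunits were lower in S89G-NSC than in WT-NSC. Fth1 (ENSMUSG00000024661, chr19:9980598-9985098), the heavy chain that oxidizes iron on entry, had 603, 638 and 664 CPM in WT-NSC and 500.0, 543 and 530 CPM in S89G-NSC. The highest S89G library was below the lowest WT library. The fitted log2 fold change was −0.28 ± 0.05 (standard error, n = 3 against 3), a level 17.5% lower. Ftl1 (ENSMUSG00000050708, chr7:45457944-45459884), the light chain that helps to form the mineral core, had 509, 493 and 548 CPM in WT-NSC and 416, 449 and 447 CPM in S89G-NSC. Its groups did not overlap either, and its log2 fold change was −0.24 ± 0.05. The chains kept a like ratio of reads, with 1.18 to 1.29 Fth1 reads for each Ftl1 read in WT-NSC and 1.19 to 1.21 in S89G-NSC. Together they took 0.111% to 0.120% of the counted reads in WT-NSC and 0.0909% to 0.0984% in S89G-NSC. On the TPM (transcripts per 1000000) that the authors deposited for the same libraries, both genes overlapped between genotypes. Fth1 spanned 751 to 823 TPM in WT-NSC and 617 to 1062 TPM in S89G-NSC, and Ftl1 spanned 1053 to 2350 and 446 to 1983 TPM.

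**Figure D1:**
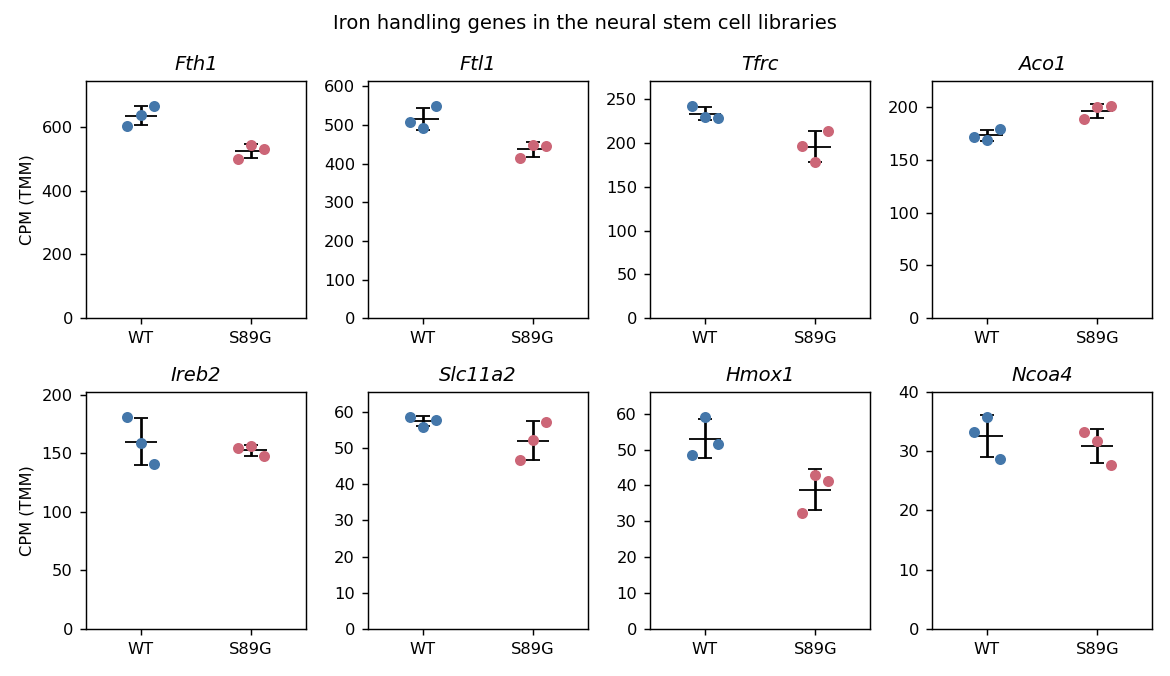
Level of 8 iron handling genes in each neural stem cell library, in CPM scaled by TMM on a linear axis from 0. Points are libraries and bars the mean ± SD of 3. Fth1, Ftl1, Tfrc and Hmox1 lay lower in every S89G library than in any WT library, Aco1 lay higher, and Ireb2, Slc11a2 and Ncoa4 overlapped.

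Ferritin has many processed copies in the mouse genome, and reads can be shared with them. Of 13 other genes with a ferritin symbol, 3 had any read. The pseudogene Ftl1-ps1 held 61 reads over the 6 NSC libraries, 0.871% of the Ftl1 reads, and 251 (WT-AST) and 77 (S89G-AST) in astrocytes. Fth-ps2 had 1 read in all NSC libraries and 4 in each astrocyte library. Of the merged exon bases of Ftl1, 26.5% are also covered by Gm10252 on the opposite strand and 8.13% by the miRNA gene Gm22133 on the same strand. The sources used here do not state whether counting used strand, so reads of these genes cannot be told apart from Ftl1 reads.

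Of the uptake and export genes, Tfrc was lower in S89G-NSC, Slc11a2 was not separated, and Slc40a1 and Trf had almost no reads. Tfrc (ENSMUSG00000022797, chr16:32608920-32632794) had 241, 230.0 and 228 CPM in WT-NSC and 197, 178 and 213 CPM in S89G-NSC. The groups did not overlap and the log2 fold change was −0.25 ± 0.07, which became −0.19 without S89G-NSC replicate 2, the lowest library, where it was no longer past an edgeR adjusted p of 0.05. Slc11a2 (ENSMUSG00000023030, chr15:100387898-100425072), the divalent metal transporter, had 58.6, 55.9 and 57.9 CPM in WT-NSC and 46.8, 52.2 and 57.4 CPM in S89G-NSC. These groups overlapped, with a log2 fold change of −0.14 ± 0.11. Slc40a1 (ENSMUSG00000025993, chr1:45908068-45926523), the only known iron exporter, had 0 reads in 5 of the 6 NSC libraries and 1 read in S89G-NSC replicate 3. A level of up to 3 reads a library is not detectable at this depth, and no fold change was computed.

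Trf (ENSMUSG00000032554, chr9:103204001-103230444) differed between the deposited units. Its reads numbered 2, 4 and 2 in WT-NSC and 6, 3 and 4 in S89G-NSC, too few to enter the fit. The deposited TPM of the same libraries was 49.0, 52.7 and 52.8 in WT-NSC and 81.5, 71.1 and 96.6 in S89G-NSC, with no overlap. Of the merged exon bases of Trf, 63.5% are shared on the same strand with the gene model Gm20425, which had 0 reads and 0 TPM in every library. Whether that overlap bears on the low read count was not tested. In astrocytes Trf had 3 reads in WT-AST and 2 in S89G-AST, and 0.199 and 0.143 FPKM (fragments scaled by gene length and depth).

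Of the iron sensors, Aco1 was higher in S89G-NSC and Ireb2 was not separated. Aco1 (ENSMUSG00000028405, chr4:40143081-40198338), which is the cytosolic aconitase when it holds an iron-sulfur cluster, had 172, 169 and 179 CPM in WT-NSC and 189, 199.9 and 201 CPM in S89G-NSC. Every S89G library was above every WT library, and the log2 fold change was 0.18 ± 0.07. Its level changed by less than the standard error when single libraries were left out (0.16 to 0.21), but it stayed past the threshold only without S89G-NSC replicate 1. Ireb2 (ENSMUSG00000032293, chr9:54863789-54912530), which is degraded when iron is plentiful, had 181, 158 and 141 CPM in WT-NSC and 154, 156 and 147 CPM in S89G-NSC. The S89G libraries lay inside the WT range, with a log2 fold change of −0.07 ± 0.07 that turned to 0.03 without WT-NSC replicate 1.

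Hmox1 differed most among the members with enough NSC reads. Hmox1 (ENSMUSG00000005413, chr8:75093621-75100589), heme oxygenase 1, had 48.5, 59.0 and 51.5 CPM in WT-NSC and 32.4, 42.8 and 41.3 CPM in S89G-NSC. The groups did not overlap and the log2 fold change was −0.45 ± 0.12, which is 26.8% lower. It was −0.34 without S89G-NSC replicate 1 and −0.37 without WT-NSC replicate 2, both times no longer past the threshold. Ncoa4 (ENSMUSG00000056234, chr14:32159865-32179855) had 33.3, 35.7 and 28.8 CPM in WT-NSC and 33.3, 31.7 and 27.7 CPM in S89G-NSC. These overlapped, with a log2 fold change of −0.08 ± 0.14.

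In the edgeR quasi-likelihood fit over all 11194 genes with enough reads, 8 of the 10 members were tested. At a Benjamini-Hochberg adjusted p below 0.05, 4 were called lower in S89G-NSC (Fth1, Ftl1, Tfrc and Hmox1) and 1 higher (Aco1). Of all genes tested, 8.76% were called lower, 7.08% higher and 15.8% either way. The contrast had been seen when the members were chosen, so nothing is read from this count. DESeq2 called 2 members, Fth1 and Ftl1, of 745 genes (6.81% of those with an adjusted p), and limma on the deposited TPM called none of the 9 members it tested (1 at an unadjusted p below 0.05), of 110 or 128 genes called depending on the pseudocount. Of the 8 tested members, 4 did not overlap with S89G-NSC lower and 1 with S89G-NSC higher, against 16.0% and 14.8% of all genes tested (30.7% either way). The median log2 fold change was −0.19 over the 8 members and 0.0026 over all genes tested. The astrocyte marker sum was higher in S89G-NSC beside these values, and its part in them was not tested.

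In astrocytes the ferritin genes, Hmox1 and Slc40a1 had lower levels in S89G-AST than in WT-AST. These are ratios of 1 library to 1 library without a replicate check, and the intervals given with them cover counting error only. Fth1 had 60277 reads in WT-AST (4765 CPM) and 22637 reads in S89G-AST (1574 CPM). The log2 ratio was −1.60 (95% interval −1.62 to −1.58), and WT-AST had 3.03 times the S89G-AST level. Ftl1 had 46037 reads in WT-AST (3639 CPM) and 16703 in S89G-AST (1161 CPM), a log2 ratio of −1.65 (−1.67 to −1.62). Ferritin took 0.759% of the reads of WT-AST and 0.302% of those of S89G-AST, and the Fth1 to Ftl1 read ratio was 1.31 and 1.36. Slc40a1 had 525 reads in WT-AST and 53 in S89G-AST, the widest gap among the members, with a log2 ratio of −3.44 (−3.93 to −3.08). Hmox1 had 7021 and 3690 reads, a log2 ratio of −1.11 (−1.17 to −1.06).

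The other members differed by less than 2-fold in astrocytes. Tfrc had 449 reads in WT-AST and 683 in S89G-AST, a log2 ratio of 0.42 (0.25 to 0.60). Aco1 (650 and 916 reads) and Ireb2 (1157 and 1623 reads) had log2 ratios of 0.31 and 0.30. Slc11a2 had 545 and 505 reads, a log2 ratio of −0.29 (−0.47 to −0.12). Ncoa4 had 1036 and 1114 reads, a log2 ratio of −0.08, and its interval of −0.20 to 0.04 held 0. By the labels, Tfrc was the one member that was lower in every S89G-NSC library and higher in S89G-AST. With the astrocyte labels exchanged, it would instead be Fth1, Ftl1 and Hmox1.

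The size of these ratios depended on the scaling. TMM gave the libraries factors of 0.904 (WT-AST) and 1.11 (S89G-AST), and scaling by library size alone moved the median of all genes by 0.29 on the log2 scale. On that scale Fth1 was at −1.31, Ftl1 at −1.36, Slc40a1 at −3.16, Hmox1 at −0.82, Tfrc at 0.71, Slc11a2 at −0.0036 and Ncoa4 at 0.21. Hmox1 then no longer passed 2-fold and Ncoa4 changed sign. At least 2-fold lower levels were seen for 4 of the 9 members with 10 or more reads in either library, and for 12.8% of all 15680 genes, while none of the members and 17.3% of all genes lay that far above WT-AST (30.1% either way). By library size alone it was 3 members, 9.66% of genes lower and 22.2% higher. The fibroblast and meningeal marker sum was lower, and the astrocyte, neural progenitor and microglia sums were higher, in the same S89G-AST library. Xist stood at 74 against 12172 reads. The part of these differences in the ferritin, ferroportin and heme oxygenase values was not tested. With 1 library a genotype, the genotype and the cell composition of the culture cannot be told apart.

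**Figure D2:**
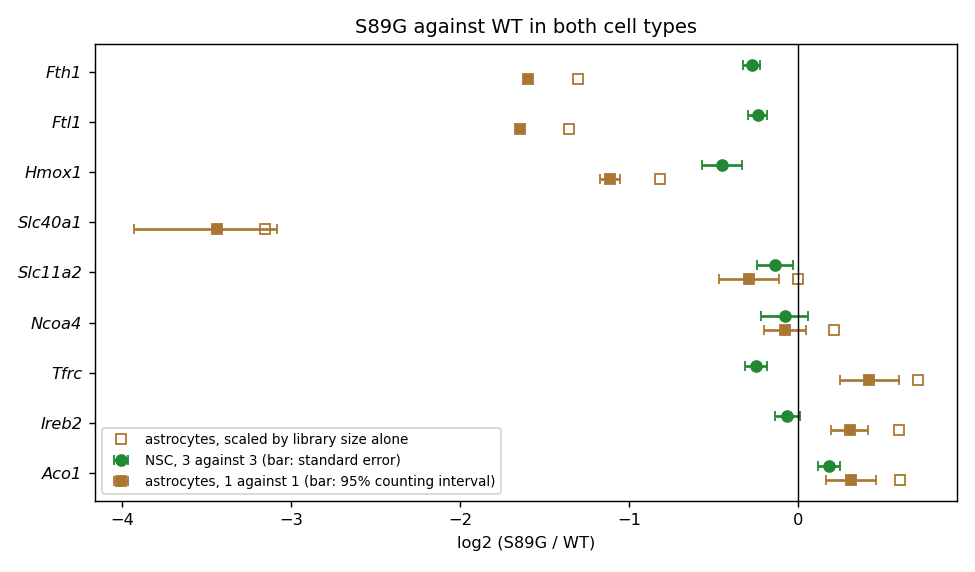
Difference between S89G and WT for 9 members as a log2 ratio, with circles for NSCs (bar: standard error of 3 against 3) and filled squares for astrocytes (bar: 95% counting interval of 1 against 1 library, TMM scaling). Open squares scale the astrocyte libraries by size alone, which moved Slc11a2 to about 0 and Ncoa4 to 0.21. With TMM, the points of Fth1, Ftl1, Hmox1, Slc11a2 and Ncoa4 lay left of 0 in both cell types. Those of Tfrc and Ireb2 lay on opposite sides. Slc40a1 has no NSC value, and Trf is not drawn.

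Levels of different genes were compared per length, as TPM computed from the counts with the gene lengths implied by the astrocyte FPKM. The NSC and astrocyte tables were made with different pipelines, so levels set across them carry that difference. In WT-NSC the order was Fth1 (1287 ± 54, SD, n = 3), Ftl1 (1120 ± 57), Aco1 (217 ± 6.1), Tfrc (208 ± 7.5), Hmox1 (96.6 ± 9.8), Slc11a2 (75.1 ± 2.0), Ireb2 (48.4 ± 6.4), Ncoa4 (31.3 ± 3.5), Trf (1.7 ± 0.69) and Slc40a1 (0). The ranges of Aco1 and Tfrc overlapped, and all other neighbours were apart. In S89G-NSC the order was the same, with Aco1 (243 ± 6.7) now apart from Tfrc (172 ± 15) and with Hmox1 (69.8 ± 9.7) overlapping Slc11a2 (67.1 ± 6.3). In WT-AST Fth1 stood at 9027, Ftl1 at 7371 and Hmox1 at 946, each far above the NSC values. The astrocyte order then ran through Ncoa4 (73.5), Aco1 (60.3), Slc11a2 (52.6), Slc40a1 (45.1), Tfrc (29.6) and Ireb2 (25.8) to Trf (0.362). Tfrc, Aco1, Slc11a2 and Ireb2 were thus higher in WT-NSC than in WT-AST, and the ferritins, Hmox1, Ncoa4 and Slc40a1 lower. Trf had 2, 4 and 2 reads in WT-NSC and 3 in WT-AST, too few to give a direction. In S89G-AST Fth1 stood at 3596, Ftl1 at 2836, Hmox1 at 527, Aco1 at 90.1, Tfrc at 47.7 and Slc40a1 at 4.8. The order of the ferritin chains rested on the lengths used. With merged exon lengths of GENCODE M21, Ftl1 (1490 in WT-NSC) stood above Fth1 (707). In the TPM the authors deposited, Ftl1 was above Fth1 in every WT-NSC library, while their ranges overlapped in S89G-NSC.

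**Figure D3:**
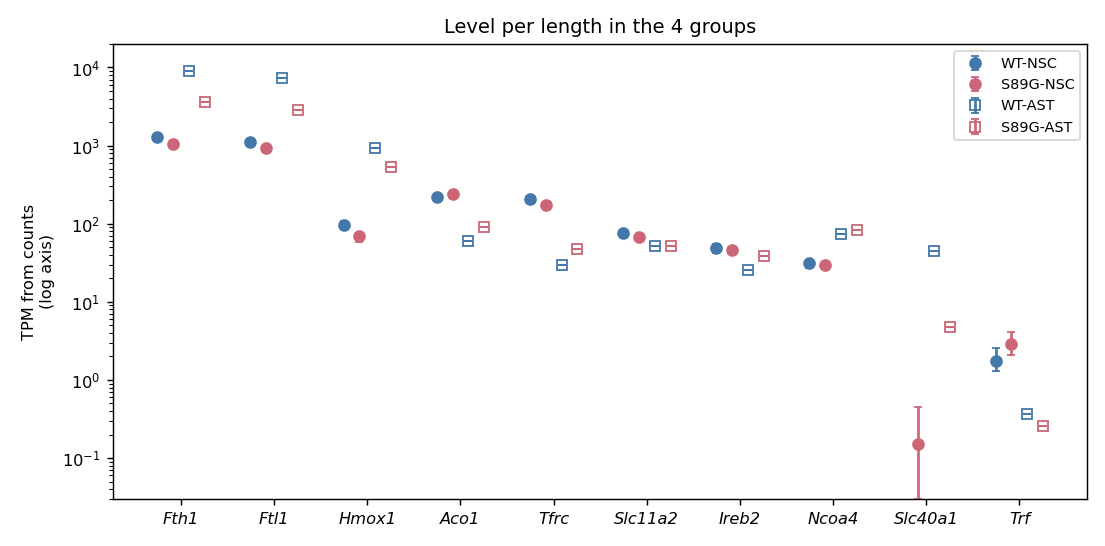
Level per length of the 10 members in the 4 groups, in TPM from counts on a log axis. Circles are means of 3 NSC libraries with bars from the lowest to the highest, and squares are single astrocyte libraries. Ferritin stood highest in all groups, with 1287 for Fth1 in WT-NSC and 9027 in WT-AST. Slc40a1 was at 0 in WT-NSC and is not drawn there, and its lower bar in S89G-NSC ends at the axis because 2 libraries were at 0.

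Beyond the members, 125 genes of the iron pathway were grouped in 10 lists, of which 97 genes entered the NSC fit. Of these, 10 were called lower and 2 higher in S89G-NSC, or 12.4%, beside 15.8% of all genes tested. Their median log2 fold change was 0.0019. The call with the widest difference was Cp, the ceruloplasmin ferroxidase that works beside ferroportin. Cp had 48.9, 46.2 and 39.5 CPM in WT-NSC and 15.6, 18.4 and 14.8 CPM in S89G-NSC, and the groups were far apart. It fell by 1.46 ± 0.15 on the log2 scale (edgeR adjusted p = 4.3e-12). In astrocytes Cp had 7229 reads in WT-AST and 8863 in S89G-AST, a log2 ratio of 0.11. Heph, the related membrane ferroxidase, had 0.525 CPM in WT-NSC and 1.52 CPM in S89G-NSC and was under the filter.

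Heme genes gave 3 calls in NSCs among 8 synthesis and 9 transport and breakdown genes tested, a share near the 15.8% of all genes. In heme synthesis 1 of 8 tested genes was called, Ppox, protoporphyrinogen oxidase, which fell by 0.60 ± 0.14 on the log2 scale (edgeR adjusted p = 0.00075). Alas1, the first and rate-limiting enzyme of the pathway, was at −0.08 ± 0.12. In heme transport and breakdown 2 of 9 were called. Lrp1, a large endocytic receptor that also takes up heme bound to hemopexin, fell by 0.38 ± 0.05 (edgeR adjusted p = 7.8e-08). Slc48a1, which moves heme out of the endosome, fell by 0.39 ± 0.09 (edgeR adjusted p = 0.0014). Hmox2, the constitutive heme oxygenase, was at 0.05 ± 0.13 while Hmox1 was lower.

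Mitochondrial iron and iron-sulfur assembly had 1 of 22 tested genes called lower and 1 higher, or 9.09%, beside 15.8% of all genes tested. The list had a median of 0.11, beside 0.0026 over all genes tested. Fdx1, a ferredoxin, fell by 0.71 ± 0.25 (edgeR adjusted p = 0.040), and Hspa9, a chaperone of cluster transfer, rose by 0.18 ± 0.05 (edgeR adjusted p = 0.013). Fdx1 was past the threshold in only 1 of the 6 fits that left out a library, the one without WT-NSC replicate 1, and had an edgeR adjusted p of 0.23 without WT-NSC replicate 3. Hspa9 was no longer past it without WT-NSC replicate 3 or without S89G-NSC replicate 3. None of the 11 cytosolic iron-sulfur assembly genes, the 6 tested iron uptake and reduction genes or the 4 tested ferritin copies and chaperones was called by edgeR, DESeq2 or limma. At an unadjusted edgeR p below 0.05 these lists held 0, 0 and 1 genes.

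Among genes that control the iron regulatory proteins or carry a hairpin, 1 of 8 was called higher and 1 lower. That is 25.0% of a short list, beside 15.8% of all genes tested. Cul1, the scaffold of the ubiquitin ligase that removes Ireb2, rose by 0.25 ± 0.07 (edgeR adjusted p = 0.011), and lost the call without S89G-NSC replicate 1 or replicate 3. App, the amyloid precursor protein, fell by 0.22 ± 0.06 (edgeR adjusted p = 0.0027). Fbxl5, the iron-sensing subunit of that ligase, was at 0.24 ± 0.12 and the hypoxia factor Epas1 at −0.11 ± 0.14, neither past the threshold.

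Ferritinophagy, the lysosomal turnover of ferritin, had 2 of 13 genes called lower, or 15.4%, beside 15.8% of all genes called either way. Atg9a, a membrane protein of autophagosome formation, fell by 0.54 ± 0.14 (edgeR adjusted p = 0.0049), and Sqstm1, the p62 cargo receptor, fell by 0.25 ± 0.06 (edgeR adjusted p = 0.0028). In the NRF2 pathway, whose targets include ferritin and Hmox1, 2 of 14 were called lower, or 14.3%. Bach1, a heme-sensing repressor of Hmox1, fell by 0.37 ± 0.09 (edgeR adjusted p = 0.0014). Srxn1, sulfiredoxin, fell by 0.39 ± 0.13 (edgeR adjusted p = 0.029) and lost the call in 4 of the 6 fits without a library, those without replicate 1 or 2 of WT-NSC and replicate 1 or 3 of S89G-NSC. Nfe2l2, which encodes NRF2, was at 0.03 ± 0.08, Nqo1 at 0.30 ± 0.28, Slc7a11 at 0.08 ± 0.14 and Gpx4 at −0.21 ± 0.09, none called. DESeq2 called 6 of the 12 genes (Cp, Ppox, Lrp1, Hspa9, App and Sqstm1), and limma on the deposited TPM called none of them or of the 108 list genes it tested, with 12 or 14 at an unadjusted p below 0.05 depending on the pseudocount.

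In astrocytes, 113 of the 125 genes had 10 or more reads in either library, and 25 were at least 2-fold lower in S89G-AST and 7 were higher by as much, beside 12.8% and 17.3% of all genes. The median log2 ratio was −0.33 over these genes and 0.010 over all genes, or −0.04 and 0.30 with library size alone. By library size alone 17 genes were at least 2-fold lower and 9 higher. These single-library ratios carry the same marker differences as those of the members.

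The NRF2 list had 7 of 15 genes at least 2-fold lower and none higher, with a median of −0.83 (5 genes and −0.54 by library size alone). Over all genes, 12.8% were that much lower and 17.3% that much higher. Slc7a11, the cystine importer that feeds glutathione synthesis, had 3714 reads in WT-AST and 133 in S89G-AST, a log2 ratio of −4.97 (95% interval −5.25 to −4.74). Nqo1, a quinone reductase, had 2267 and 154 reads, a log2 ratio of −4.05. Nfe2l2 itself had 2281 and 3678 reads, a log2 ratio of 0.50, Bach1 was at 0.14 and Gpx4 at −0.83.

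In astrocytes most heme genes had negative log2 ratios with TMM, and uptake genes went both ways. Of the 8 heme synthesis genes 7 were negative (5 by library size alone), and of the 11 heme transport and breakdown genes 10 were negative (7 by library size alone). Of all 15680 genes, 7756 were negative with TMM and 5269 by library size alone. Alas1 had 3621 reads in WT-AST and 598 in S89G-AST, a log2 ratio of −2.78. The heme transport and breakdown list had 5 of 11 genes at least 2-fold lower and 1 higher, or 3 and 1 by library size alone, where Lrp1 was at −0.77. Over all genes the shares were 12.8% lower and 17.3% higher. Among them the exporter Abcg2 was at −1.71 and Lrp1 at −1.06, while Flvcr2 was at 1.96 on 14 and 68 reads. Cd163, a macrophage receptor for hemoglobin, had 20 reads in WT-AST and 0 in S89G-AST. With TMM it was 7.58-fold lower against a floor of 3 reads in the S89G-AST library. The upper end of its counting interval was −2.49 on the log2 scale, a smaller difference than the floor gives. In iron uptake and reduction, 5 of 13 genes were at least 2-fold lower and 3 higher, or 4 and 4 by library size alone. Cybrd1, a ferric reductase, had 24 reads in WT-AST and 1354 in S89G-AST, a log2 ratio of 5.53 (5.05 to 6.28). Steap3, the endosomal ferric reductase that acts beside Slc11a2, had 559 and 48 reads, a log2 ratio of −3.67. Steap4 had 3 and 52 reads, with an interval of 2.30 to 6.25 on the log2 scale.

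The remaining lists held few large ratios in astrocytes, and their named genes are in the plot of the other iron pathway genes. Ftl1-ps1 was at −1.86, near its parent gene Ftl1 at −1.65. Cdc14a was at 1.74 and the control gene Fbxl5 at −0.12. Epas1 was at −1.30, and Sqstm1 was the 1 ferritinophagy gene past 2-fold, at −1.49. No cytosolic iron-sulfur assembly gene reached 2-fold.

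**Figure D4:**
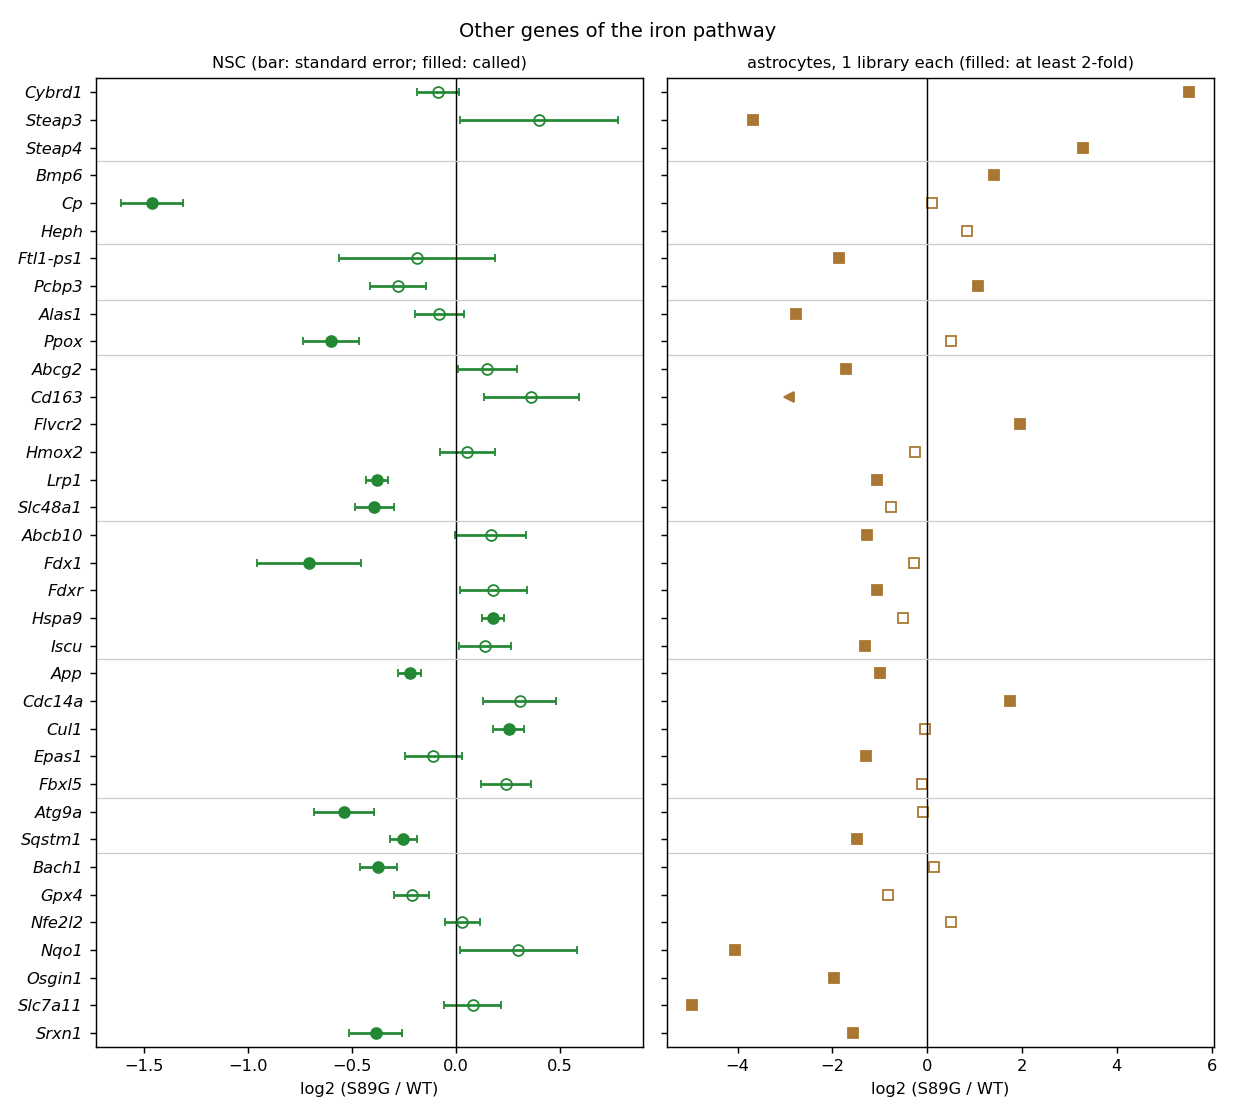
S89G against WT for the named iron pathway genes that are no members, as a log2 ratio. NSCs are on the left (bar: standard error, filled where called by edgeR). Astrocytes are on the right (1 library each, filled where at least 2-fold). A triangle marks Cd163, which had 0 reads in S89G-AST, at the value set by the floor of 3 reads. Grey lines part the lists. Cp stood farthest left in NSCs at −1.46, and Slc7a11 at −4.97 and Cybrd1 at 5.53 marked the ends in astrocytes. The axes differ in scale.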

How the data were processed

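The authors deposited raw counts and TPM per gene for the 6 NSC libraries and raw counts and FPKM for the 2 astrocyte libraries. Per the labels and methods, astrocyte reads were aligned with TopHat2 2.0.9 and Bowtie2 2.0.6 (build and counter not given in the sources used here), and the submitters' processing notes name HISAT2, StringTie, featureCounts and GRCm38 for NSCs. Members and lists were chosen with earlier results of these data known. NSC counts were filtered (filterByExpr), scaled by TMM and tested by genotype with edgeR 4.0.16 (quasi-likelihood, Benjamini-Hochberg, 0.05) in R 4.3.3. Standard errors come from the fitted change and its F statistic. DESeq2 1.42.0 and limma 3.58.1 were alternatives. Astrocyte ratios used TMM CPM with a prior count of 2 and at least 10 reads in either library, with Clopper-Pearson intervals (95%) and no test. A list gene was named if called or at least 2-fold different (up to 3 per list) or fixed by name, and 1 gene fixed by name is not reported here. In simulated NSC counts, 93 of 100 genes changed 2-fold, 66 of 100 changed by 0.5 (log2) and 13 of 11004 unchanged genes were called. The simulation gave every gene the same small dispersion and no variation between animals or cultures. It therefore does not measure false calls in the real libraries. Correlations of deviations between same-numbered NSC libraries were 0.028, −0.0099 and −0.017, so the numbers did not pair them. Intervals and floors cover counting error only. Trf was too sparse for the fit.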

Additional observations from a re-analysis of the deposited data

Results flagged for a closer look

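Named genes whose libraries all moved one way in NSCs while the astrocyte pair moved the other way are given here. The difference between cell types was not tested. The astrocyte direction follows labels that the markers left in doubt, and with exchanged labels other genes would be given. Lower in every S89G-NSC library but higher in S89G-AST were Tfrc (astrocyte log2 ratio 0.42), Cp (0.11), Pcbp3 (1.08), Ppox (0.50) and Bach1 (0.14). Higher in every S89G-NSC library but lower in S89G-AST were Cd163 (7.58-fold lower against a floor of 3 reads, on 20 and 0 reads), Hspa9 (−0.51), Fdxr (−1.05) and Cul1 (−0.056). Cul1 was at 0.24 in astrocytes with library size alone, so its opposite sign rests on the scaling. Of all genes in the NSC fit, 30.7% had groups that did not overlap.

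The deposited TPM of Trf, a unit that the comparison on counts did not use, had a mean of 83.1 ± 12.8 (SD, n = 3) in S89G-NSC and 51.5 ± 2.2 in WT-NSC, above every WT library, while the same libraries held 2 to 6 reads. limma on this TPM, with a pseudocount of 1, gave a log2 fold change of 0.67 and did not call it (adjusted p = 0.10). The cause of the gap between the units was not tested.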

How the results depend on the processing

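In NSCs, DESeq2 called 2 members, 6 other iron pathway genes and 745 genes in all, against 5, 12 and 1773 in edgeR. limma on the deposited TPM called 0 members and 0 other iron genes, of 110 (pseudocount 1) and 128 (pseudocount 0.1) genes in all. The cause was not tested. Other scalings and filters gave 4 or 5 members, and without one library each the count was 3 to 4 (9 to 13 other iron genes, 1363 to 1659 genes in all). Fth1 and Ftl1 were past the threshold in all edgeR and DESeq2 fits. With the replicate block, 5 members, 12 other iron genes and 1845 genes were called, and the NSC numbers were not shown to pair libraries. The sign turned without one library for Ireb2 (−0.15 to 0.027), Cybrd1 (−0.17 to 0.023), Ftl1-ps1 (−0.45 to 0.18), Alas1 (−0.17 to 0.057), Hmox2 (−0.014 to 0.12), Epas1 (−0.22 to 0.0045), Slc7a11 (−0.0016 to 0.17) and Nfe2l2 (−0.059 to 0.12), none of them called. On TPM it also turned for Slc7a11 (−0.083 and −0.0899).

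In astrocytes, log2(FPKM + 1) left 21 other iron genes at least 2-fold different, against 32. With TMM, 21.9% of the 32 were higher. With library size alone, 34.6% of 26 were higher. Over all genes past 2-fold these shares were 57.4% and 69.7%. All 4 shares follow labels that the markers left in doubt, and exchanged labels would turn higher into lower. Members stayed at 3 or 4. With merged exon lengths, 20 of 40 member positions in the order of levels (10 members in 4 groups) were kept. Trf and, in NSCs, Slc40a1 are limited by their few reads, the cause of which was not tested. Every astrocyte value is limited by its single library.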
